A study of Mus musculus with 6 samples.

Results

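NMPs C is a cluster of neuromesodermal progenitor-like cells in stembryos, the elongating aggregates of mouse embryonic stem (mES) cells that form trunk and tail tissues in culture. Its members were the cells to which the deposited annotation gives the fate NMPs C, and they numbered 3516 of 26968 cells, 1 of 12 annotated fates. Of these, 3483 cells (99.1%) came from 120 h after aggregation. The annotation was made by clustering these same transcriptomes, so the genes that set the cluster apart from other cells are given as a description, without a test.

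Neuromesodermal progenitors are bipotent cells at the posterior end of the vertebrate body axis that feed both the spinal cord and the paraxial mesoderm while the axis grows. They are known for holding the mesodermal factor T (brachyury) together with the neural factor Sox2, under Wnt and FGF signals that are strong at the tail end and shielded there from retinoic acid. As the axis extends, such cells switch on Hox genes in the order of their position in the clusters, so that tail progenitors carry later Hox genes than trunk progenitors.

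All 6 libraries were droplet-based single-cell RNA-seq of wt stembryos, each made from a pool of stembryos that had received a transient pulse of a Wnt agonist, and no other genotype entered. Whole stembryos gave 2 libraries at 96 h and 2 at 120 h, and 1 more collection of 120 h was cut into an anterior and a posterior part, each giving 1 library. Stembryos that had not elongated by 120 h were discarded, so the cells describe the aggregates that did elongate. Replicate 1 of both times belonged to batch 1 (V3 chemistry), replicate 2 of both times to batch 4 (V3.1), and the dissected parts to batch 2 (V3), so a difference between 2 libraries of different batches cannot be told apart from a batch difference. The libraries held 2649 to 7887 cells and 24303317 to 117580506 unique molecular identifiers (UMIs), and 75 cell barcodes occurred in 2 libraries each, 23 of them on NMPs C cells.

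NMPs C cells were found in the posterior part and in the whole stembryos at 120 h, and hardly anywhere else. They made up 1251 of 7887 cells (15.9%, exact binomial 95% interval 15.1 to 16.7) in the posterior part, 1581 of 4867 cells (32.5%, 31.2 to 33.8) in whole replicate 1 and 651 of 2683 cells (24.3%, 22.7 to 25.9) in whole replicate 2. The anterior part had 0 of 3944 cells, for which the same interval reaches up to 0.0935%. At 96 h there were 24 of 4938 cells (0.486%) in replicate 1 and 9 of 2649 cells (0.34%) in replicate 2, where the progenitors were annotated mostly as NMPs A (2765 cells of replicate 1) or NMPs B (1632 cells of replicate 2). These intervals cover counting error only, and the 3 libraries with NMPs C differed from each other by more than those intervals. With 1 library of each dissected part, the anterior and posterior shares carry no test.

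**Figure D1:**
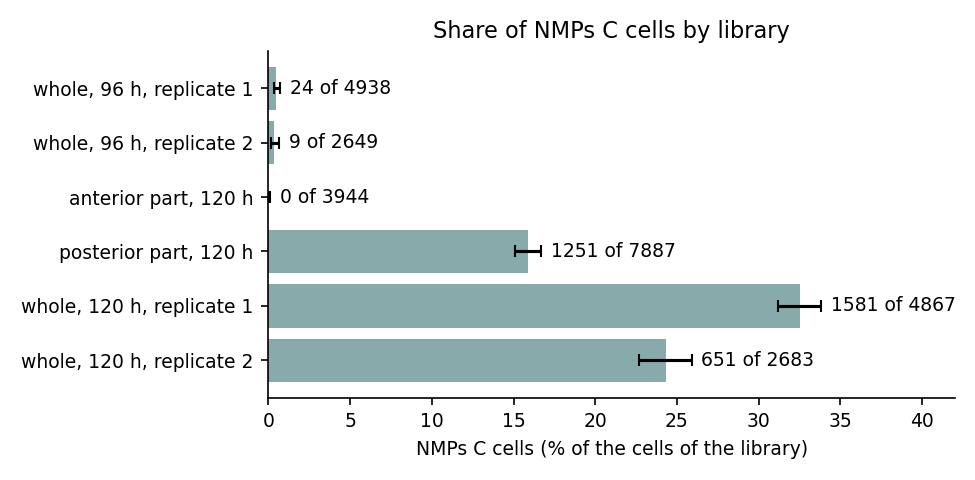
Share of cells annotated NMPs C in each library, as a percentage of the cells of that library, with exact binomial 95% intervals and the cell counts beside each bar. The posterior part and both whole libraries at 120 h lie between 15.9 and 32.5%, and the anterior part and both 96 h libraries lie under 0.5%.

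The depth of NMPs C cells was close to that of their neighbours. Their median was 13999 UMIs per cell in the posterior part, 17619 in whole replicate 1 and 10987 in whole replicate 2, against 13588, 15890 and 9219.5 for the other cells of the same libraries. Levels below are CPM, that is, the UMIs of a gene summed over the cells of a fate in 1 library per 1000000 UMIs of those cells, with no length correction because the assay tags transcript ends. A fold is a ratio of CPM within a library unless stated otherwise. The other cells differed in make-up, so folds of different libraries are not against the same mix of cells. Spinal cord A was 36.7% of the posterior part, 4.95% of whole replicate 1 and 11.6% of whole replicate 2. Somite A was 0.862%, 24.1% and 24% of the same libraries. The 3 libraries are listed throughout in the order posterior part, whole replicate 1, whole replicate 2.

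The defining markers of neuromesodermal progenitors were present. Of 12 textbook markers, 10 reached 20 CPM in NMPs C of all 3 libraries, 9 were above the other cells in all 3, and 6 were higher in NMPs C than in every other fate of at least 50 cells in all 3. The exceptions below 20 CPM in some library were Wnt3a, the Wnt ligand of the tail bud, at 23.4, 16.8 and 9.70 CPM, and Hes3, a Hairy/E(spl) repressor, at 7.74, 14.8 and 15.4 CPM. Wnt3a was low in the other cells too, so that its fold over them was 8.51, 9.15 and 8.49. Markers of several other cell types were low. The summed level of 16 pluripotency and germ cell genes was 16.4 to 22.8 CPM, of the 10 endothelial and blood genes measured 12.3 to 17.8 CPM, of 8 notochord genes 28.7 to 38.5 CPM and of 8 neural crest genes 11.0 to 26.3 CPM. The notochord sum was nevertheless above that of the other cells in each library (38.5, 28.8 and 28.7 against 29.0, 14.5 and 21.0 CPM). So was the endothelial and blood sum (17.8, 17.3 and 12.3 against 13.9, 12.7 and 11.3 CPM). The endoderm list summed to 529, 329 and 298 CPM in NMPs C against 377, 59.9 and 128 CPM in the other cells, of which Cdx2, also a progenitor marker, made up 481, 297 and 246 CPM in NMPs C. The presomitic mesoderm list summed to 884, 554 and 408 CPM against 813, 562 and 398 CPM. The spinal cord list summed to 144, 237 and 250 CPM against 248, 196 and 320 CPM. Cdh5, Tie1, Tek and Lyve1 (endothelium), Noto and Shh (notochord), Prdm14 (pluripotent and germ cells) and Tfap2b (neural crest) were at 0 in all 3 libraries.

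Of the 5180 genes with at least 20 CPM in NMPs C of each library, 29 (0.56%) were at least 2-fold higher than in the other cells of the library in all 3, and the median over all these genes of the lowest of the 3 folds was 0.977. They included genes of Wnt, FGF and retinoic acid signalling and the transcription factors T, Cdx4, Sp5 and Sp8. The axis extension list held 9 of them among its 16 members at that level, the Wnt ligands and R-spondins 2 of 3, the Wnt targets 4 of 11, the FGF ligands and receptors 2 of 3 and the retinoic acid genes 1 of 7. Just inside the threshold, by the lowest of the 3 folds, were Gm53 (2.011), Lima1 (2.026) and Sp8 (2.051), and just outside were Nav2 (1.998), Cdx2 (1.996) and Kitl (1.989). A higher summed level in a fate can come from more expressing cells or from more RNA per cell, and the sums do not separate them.

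**Figure D2:**
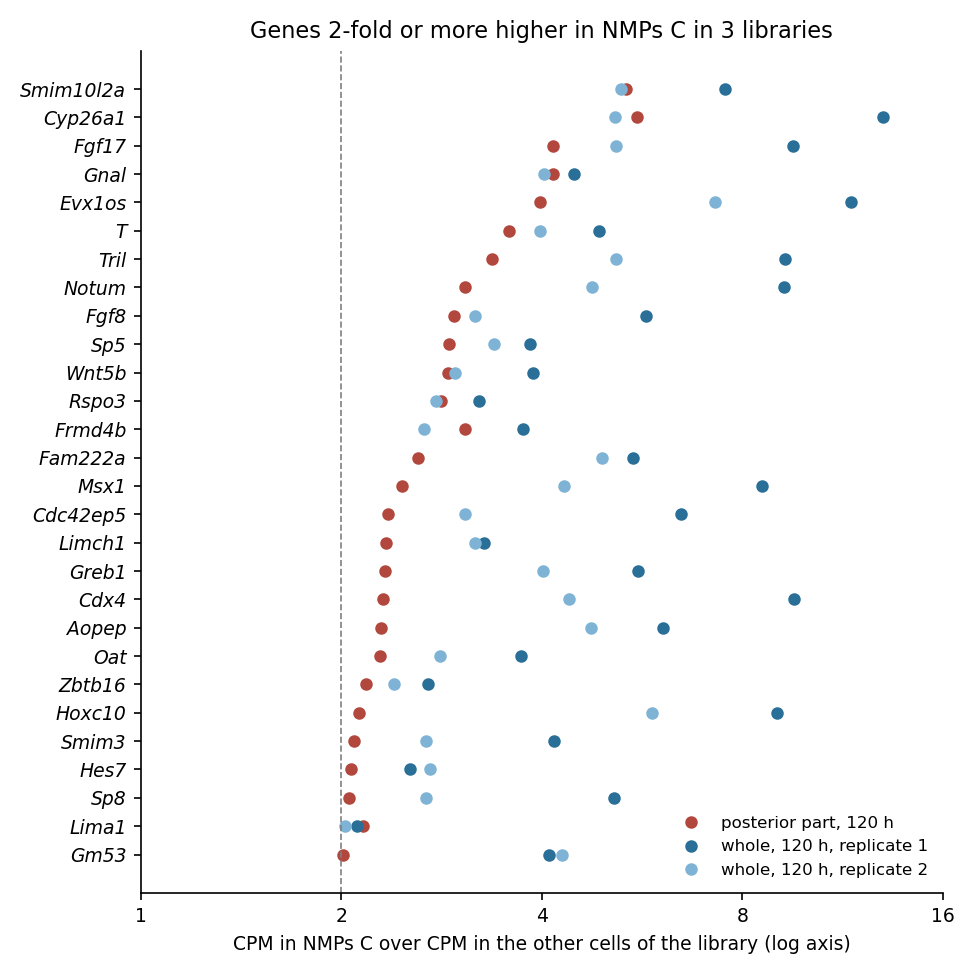
Fold of the CPM in NMPs C over that in the other cells of the same library (log axis) for 28 of the 29 genes at least 2-fold higher in all 3 libraries, ordered by the lowest fold, with 1 point per library and a dashed line at 2. For most genes the posterior part has the lowest fold and whole replicate 1 the highest, as for Cyp26a1 at 13.0 and Evx1os at 11.7 in whole replicate 1.

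The retinoic acid arm was led by Cyp26a1, the enzyme that degrades retinoic acid. Its level in NMPs C was 87.0, 34.3 and 41.0 CPM, against 15.7, 2.64 and 7.94 CPM in the other cells, which gives folds of 5.56, 13.0 and 5.16. Among the fates with at least 50 cells, NMPs C had the highest Cyp26a1 in each of the 3 libraries. Crabp1, a cytoplasmic retinoic acid-binding protein, stood on the opposite side at 50.8, 24.4 and 52.2 CPM, folds of 0.357, 0.467 and 0.342. Nr2f2, a nuclear receptor of the COUP-TF family, was likewise lower at 6.004, 25.6 and 33.1 CPM, with folds of 0.181, 0.145 and 0.193.

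The 300 bases around the Cyp26a1 start (250 before it and 50 after; RefSeq, GRCm38.p6, chr19:37697558-37697857, plus strand) are shown because this promoter holds a pair of retinoic acid receptor half-sites, here in capitals and read on the minus strand.
Cyp26a1: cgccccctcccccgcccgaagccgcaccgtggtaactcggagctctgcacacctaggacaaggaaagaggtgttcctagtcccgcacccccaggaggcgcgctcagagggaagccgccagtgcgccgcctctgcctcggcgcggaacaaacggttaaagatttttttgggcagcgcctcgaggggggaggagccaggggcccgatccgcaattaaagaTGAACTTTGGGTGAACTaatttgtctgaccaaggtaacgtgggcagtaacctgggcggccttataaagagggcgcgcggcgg
The capitals match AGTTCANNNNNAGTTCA, a direct repeat with 5 bases between, and begin 32 bases before the start. Searched on both strands, that string occurs in 8 of 32851 RefSeq promoters of the same length (0.0244%) and in 1 of the 19 leading genes that have a promoter in the table. A match describes the letters only and says nothing of binding in these cells.

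Genes of the Wnt pathway formed a second group. T (brachyury), which directs mesoderm formation and is a known Wnt target, was at 133, 75.3 and 68.0 CPM against 37.4, 15.4 and 17.1 CPM in the other cells (folds 3.57, 4.88 and 3.98). Sp5, a zinc finger factor induced by Wnt signalling, was at 111, 48.7 and 36.1 CPM, 2.90-, 3.84- and 3.39-fold above the other cells. Both had their highest level in the posterior part, where the other cells also had theirs. Notum, a secreted enzyme that inactivates Wnt ligands, was at 41.7, 40.3 and 29.6 CPM (folds 3.06, 9.24 and 4.76). Among ligands and agonists, Wnt5b was at 65.8, 25.6 and 26.9 CPM (folds 2.89, 3.88 and 2.96) and the R-spondin Rspo3, which amplifies Wnt signals at the receptor, at 466, 316 and 206 CPM (folds 2.83, 3.22 and 2.77). Tcf7l1, a repressor at Wnt target genes, was the 1 member of the Wnt target list that was at least 2-fold lower, at 10.5, 16.8 and 15.98 CPM with folds of 0.489, 0.423 and 0.413.

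The promoters of T (RefSeq, GRCm38.p6, chr17:8434173-8434472, plus strand) and Sp5 (chr2:70474673-70474972, plus strand), in the same 300-base window, are shown for their TCF/LEF core motifs, CTTTGA on either strand, in capitals.
T: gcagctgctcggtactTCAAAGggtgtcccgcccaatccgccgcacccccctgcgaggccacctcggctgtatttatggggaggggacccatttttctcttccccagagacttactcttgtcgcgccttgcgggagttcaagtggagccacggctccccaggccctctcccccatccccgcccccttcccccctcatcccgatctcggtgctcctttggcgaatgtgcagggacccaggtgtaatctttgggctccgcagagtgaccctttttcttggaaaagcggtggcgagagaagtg
Sp5: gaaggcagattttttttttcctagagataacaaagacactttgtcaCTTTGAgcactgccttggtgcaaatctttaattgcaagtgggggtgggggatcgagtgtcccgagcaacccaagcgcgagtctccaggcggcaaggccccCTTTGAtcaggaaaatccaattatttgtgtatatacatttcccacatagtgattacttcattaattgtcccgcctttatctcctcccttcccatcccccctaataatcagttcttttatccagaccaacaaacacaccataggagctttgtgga
The T window holds 1 match on the minus strand, 234 bases before the start, and the Sp5 window 2 on the plus strand, 204 and 104 bases before it. CTTTGA occurs in 5257 of 32851 promoters (16%), in 547 of the 4117 genes at 20 CPM or more in NMPs C that have a promoter in the table (13.3%), and in 9 of the 19 leading genes that have one, namely Aopep, Cdc42ep5, Frmd4b, Greb1, Limch1, Sp5, Sp8, T and Wnt5b. The leading genes were chosen for their level in these cells, and the counts are given without a test.

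FGF ligands were the third group. Fgf8, the main FGF of the tail bud, was at 310 CPM in the posterior part, 224 in whole replicate 1 and 142 in whole replicate 2, with folds of 2.95, 5.74 and 3.17. Fgf17, a close relative of Fgf8, was at 199.5, 113 and 73.7 CPM, with folds of 4.16, 9.53 and 5.17. Both had their highest CPM in the posterior part and their highest fold in whole replicate 1. None of the 7 transcriptional targets of FGF signalling at 20 CPM or more reached 2-fold in all 3 libraries, though Il17rd, an FGF feedback antagonist, did in both whole libraries (folds 1.51, 2.71 and 2.80). Fgf18, an FGF of the presomitic mesoderm, was instead lower at 3.08, 0.946 and 1.78 CPM (folds 0.0991, 0.0352 and 0.0870).

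The rest of the named genes were of several kinds. Evx1os, a noncoding RNA transcribed opposite to the homeobox gene Evx1, was at 46.3, 27.5 and 24.6 CPM (folds 3.98, 11.7 and 7.28). Smim10l2a was at 71.2, 31.4 and 30.6 CPM (folds 5.36, 7.54 and 5.26) and Gnal, a G protein alpha subunit, at 53.9, 33.5 and 28.7 CPM (folds 4.15, 4.47 and 4.03). The posterior part held the highest level of these 3 genes. Tril, a leucine-rich repeat protein of Toll-like receptor signalling, hardly varied between libraries at 79.9, 78.8 and 76.1 CPM (folds 3.37, 9.27 and 5.18). Frmd4b was at 28.0, 23.5 and 20.9 CPM (folds 3.06, 3.74 and 2.67) and Fam222a at 40.5, 27.2 and 26.4 CPM (folds 2.61, 5.49 and 4.93). Outside the 15 genes of highest lowest fold, the 29 also held Cdx4, a Cdx factor of posterior growth (178, 134 and 154 CPM, folds 2.31, 9.55 and 4.40), the segmentation clock gene Hes7 (244, 114 and 115 CPM, folds 2.07, 2.53 and 2.71), Hoxc10, Msx1, Greb1, Sp8, Lima1, Gm53, Cdc42ep5, Limch1, Aopep, Oat, Zbtb16 and Smim3.

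In the other direction, 29 of the 5019 genes with at least 20 CPM in the other cells of each library (0.578%) were at least 2-fold lower in NMPs C in all 3. Somite genes led them. All 6 members of the somite list at that level in the other cells were lower (Meox1, Tcf15, Pax3, Foxc1, Foxc2 and Foxd1), and the summed level of the 16 somite genes was 55.2, 115 and 117 CPM in NMPs C against 560, 1740 and 1170 CPM in the other cells. Tcf15, a basic helix-loop-helix factor of the paraxial mesoderm, was at 10.7, 26.4 and 27.3 CPM with folds of 0.0538, 0.0397 and 0.0650. Meox1, a somite homeobox factor, was at 11.0, 17.8 and 21.2 CPM with folds of 0.0726, 0.0484 and 0.0776. The homeobox gene Prrx2 had the smallest ratios, 0.0470, 0.0310 and 0.0480, at 2.49, 3.92 and 4.51 CPM. Foxc2 (4.60, 6.13 and 10.7 CPM) and the protocadherin Pcdh19 (6.55, 6.83 and 4.78 CPM) were both at 0.121-fold or less in every library. The imprinted RNAs H19 and Meg3, the receptor Notch1, the BMP pathway gene Fstl1, the hedgehog coreceptor Gas1, the neural crest factor Twist1 and the immediate early gene Jun were also among the genes at least 2-fold lower. No member of the lists for lipid handling, glycolysis and hypoxia or spinal cord passed in either direction.

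The 6 genes given as markers of the cluster were above the other cells in every library, yet they marked it unevenly. Hoxc10 was at 96.98, 224.5 and 124 CPM with folds of 2.13, 9.03 and 5.85, and was the 1 of the 6 to pass 2-fold and 20 CPM in all 3 libraries. Hoxa10 was at 20.2, 50.8 and 40.8 CPM (folds 1.66, 6.66 and 6.78), and Lrrn3, a neuronal leucine-rich repeat protein, at 14.4, 25.4 and 31.1 CPM (folds 1.33, 6.53 and 2.95). These 3 genes had their smallest fold in the posterior part, where their level in NMPs C was also the lowest. Spinal cord A made up 2897 of 7887 cells there, and whether this bears on the folds was not tested. The fatty acid-binding protein Fabp7 was at 24.7, 52.1 and 13.7 CPM (folds 2.90, 3.37 and 2.63), the lipoprotein lipase Lpl at 27.7, 30.9 and 15.8 CPM (folds 2.45, 3.02 and 2.56) and the R-spondin Rspo1 at 20.5, 26.1 and 13.1 CPM (folds 2.74, 4.70 and 3.04). Their folds were past 2 in every library, but Fabp7, Lpl and Rspo1 each fell short of 20 CPM in whole replicate 2.

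Within the 120 h libraries, NMPs C was set against presomitic mesoderm and the spinal cord. The other progenitor fates, NMPs A and NMPs B, had fewer than 50 cells in each and are compared at 96 h below. For T, Late PSM (presomitic mesoderm) had 76.1, 72.2 and 98.8 CPM and Spinal cord A 33.7, 17.2 and 27.5 CPM. Among the fates with at least 50 cells, NMPs C ranked highest in the posterior part and in whole replicate 1. It ranked below Late PSM in whole replicate 2. Sox2, the neural progenitor factor, was at 128, 157 and 220 CPM in NMPs C, 30.9, 25.5 and 34.2 CPM in Late PSM and 202, 158 and 202 CPM in Spinal cord A. Tbx6, the T-box factor that commits cells to presomitic mesoderm, was at 24.6, 12.3 and 5.05 CPM in NMPs C and at 146, 115 and 111 CPM in Late PSM. Msgn1, another early presomitic factor, was at 0 in NMPs C. On the neural side, Irx3 was at 8.17, 20.04 and 46.4 CPM in NMPs C and at 99.1, 94.2 and 156 CPM in Spinal cord B. Spinal cord A was closer to NMPs C. After thinning every cell to 5000 UMIs, Irx3 had a UMI in 3.44%, 7.46% and 18.5% of NMPs C cells. In Spinal cord A these shares were 14.9%, 8.71% and 16.5%, so Irx3 set the 2 fates apart in the posterior part only.

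Some genes separated NMPs C from Spinal cord A and others did not. Cyp26a1 was at 21.21, 8.16 and 16.03 CPM in Spinal cord A, below NMPs C in each library, and Fgf17 at 69.8, 39.0 and 48.5 CPM. Nkx1-2, a homeobox gene of the progenitor zone, was at 111, 88.4 and 113 CPM in NMPs C and 119, 68.3 and 95.4 CPM in Spinal cord A, so its order was not the same in the 3 libraries. Lrrn3 in Spinal cord A was at 18.8, 17.2 and 24.8 CPM, higher than in NMPs C in the posterior part and lower in both whole libraries. At 5000 UMIs per cell, Rspo1 had a UMI in 9.75%, 10.3% and 5.74% of NMPs C cells. In Spinal cord A these shares were 5.8%, 10.4% and 5.24%, so Rspo1 hardly separated them in the whole libraries. The Lpl shares were 13.1%, 13.5% and 8.77% in NMPs C and 9.18%, 11.6% and 5.24% in Spinal cord A. Fabp7 was higher in Late PSM than in NMPs C in both whole libraries (81.5 and 17.6 CPM against 52.1 and 13.7). Rspo3 was higher in Late PSM in all 3 (483, 498 and 462 CPM), and so was Hes7 (296, 254 and 273 CPM). Late PSM was also above NMPs C in both whole libraries for Sp5 (58.0 and 53.8 CPM) and Limch1 (83.8 and 92.9 CPM). For Gnal it was above NMPs C in whole replicate 2 (44.0 CPM). In all 3 libraries, 115 of the 5180 genes (2.22%) were highest in NMPs C among the fates with at least 50 cells (8, 7 and 7 fates). NMPs A and NMPs B did not enter this ranking. Among the 115 were Hoxc10 and, from the axis extension list, Cdx1, Cdx2, Cdx4, Sp8, Greb1, Fgf8, Fgf17, Wnt5b and Cyp26a1.

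At 20 CPM or more, the Hox genes of NMPs C reached paralog group 10. Later genes were not absent. The 10 posterior Hox genes measured (groups 10 to 13) summed to 123, 300 and 173 CPM, and none was at 0 in all 3 libraries. Of 37 Hox genes in the table, 24 reached 20 CPM in NMPs C of at least 1 library. Hoxc10 was higher in NMPs C than in Spinal cord A (83.8, 157 and 98.5 CPM) and Late PSM (14.7, 47.2 and 15.7 CPM) of every library. Hoxa10 in Spinal cord A was at 21.1, 37.8 and 22.1 CPM, about the NMPs C level in the posterior part and below it in both whole libraries. Hoxd10, looked up after its neighbours, was at 3.95, 16.3 and 6.69 CPM in NMPs C, and every gene of group 13 was at 0.385 CPM or less. None of the 8 anterior and 10 central Hox genes at 20 CPM or more was past 2-fold over the other cells in all 3 libraries. Hoxa3 (folds 1.55, 2.68 and 2.12), Hoxc6 (1.59, 3.24 and 2.74) and Hoxc8 (1.36, 2.92 and 2.18) were past it in both whole libraries but not in the posterior part. Hoxb9 was past it in none, at 259, 222 and 280 CPM with folds of 1.16, 1.38 and 1.37.

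The share of single cells with a UMI was taken after every cell was thinned to 5000 UMIs (24 shallower NMPs C cells of whole replicate 2 left out). Hoxc10 had a UMI in 33.0%, 62.2% and 40.0% of NMPs C cells, 30.2%, 48.1% and 36.3% of Spinal cord A cells and 1.45%, 1.36% and 0.727% of somite cells, a fate that should lack it. Hoxa10 was seen in 9.91%, 22.3% and 17.9% of NMPs C cells, and Hoxd10 in 1.68%, 8.03% and 2.87%. Without thinning, the Hoxc10 shares of NMPs C were 62.4%, 91.1% and 59.0%. Cells with Hoxc10 were not marked by Hoxc9: 62.2% of the Hoxc10 cells in the posterior part also had a Hoxc9 UMI, against 62.9% of all NMPs C cells there. The median depth before thinning was 13999, 17619 and 11170 UMIs in the NMPs C cells used and 11245, 15643 and 9096 in somite cells.

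The question of what changes between the progenitors of 96 h and 120 h was addressed by setting NMPs C of each whole 120 h library beside the main progenitor fate of the 96 h library with the same replicate number and batch, NMPs A for replicate 1 and NMPs B for replicate 2. NMPs A and NMPs B are different clusters from NMPs C, and stembryos were selected for elongation at 120 h but not at 96 h, so these ratios are a description. Of 5617 genes with at least 20 CPM in NMPs C of both, 56 (0.997%) were at least 2-fold higher in both pairs. Of 5320 genes with at least 20 CPM at 96 h in both, 28 (0.526%) were at least 2-fold lower. Posterior Hox genes stood at the top.

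Hoxc10 was at 2.15 CPM in NMPs A and 0.196 CPM in NMPs B, which puts NMPs C 104-fold higher (95% counting interval 88.3 to 124) in replicate 1 and 633-fold (216 to 3070) in replicate 2, the latter against 3 UMIs. Hoxa10 was at 0.864 and 0.261 CPM at 96 h, with ratios of 58.8 (45.1 to 78.1) and 156 (60.5 to 578). Both posterior Hox genes at 20 CPM or more were therefore higher, and of the 13 central ones Hoxd9 (ratios 4.59 and 37.8), Hoxa9 (2.93 and 16.8), Hoxc9 (2.23 and 10.2) and Hoxd8 (3.97 and 12.8) were. None of the 8 anterior Hox genes passed in either direction. Hoxb9 was level, at ratios of 0.977 and 0.973, while Hoxb8 was at 0.615 and 0.627 and Hoxb1 at 0.975 and 0.752. For Hoxa9, Hoxc9, Hoxd8 and Hoxd9 the larger ratio was in replicate 2, where NMPs B had the lower starting level (for Hoxd9, 2.41 CPM against 24.3 CPM in NMPs A).

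**Figure D3:**
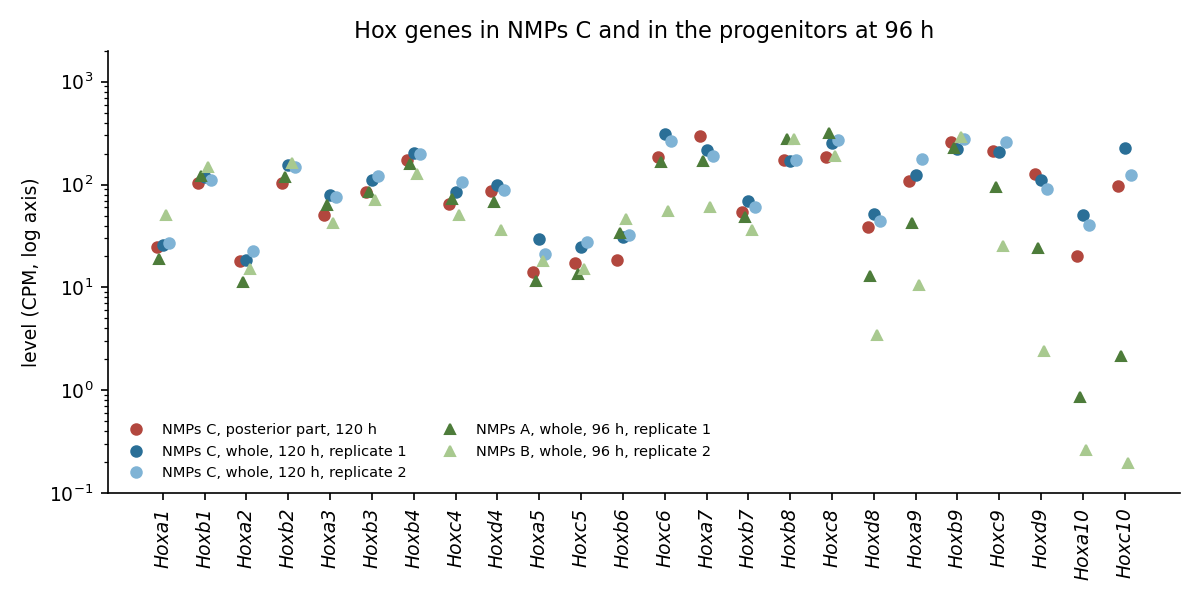
Level of each Hox gene with at least 20 CPM in NMPs C of some library (CPM, log axis), ordered by paralog group, in NMPs C of the 3 libraries at 120 h (circles) and in NMPs A and NMPs B at 96 h (triangles). Circles and triangles lie together up to group 8 for most genes. Hoxd8, Hoxa9, Hoxc9 and Hoxd9, but not Hoxb9, are at least 2-fold above 96 h in both whole libraries. So are Hoxc10 and Hoxa10, where the triangles lie at 2.15 CPM or less.

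Outside the Hox clusters, the first gene by its lower ratio was Nr2f2, which stood at 25.6 and 33.1 CPM in NMPs C against 0.818 and 0.979 CPM in the 96 h progenitors (31.3- and 33.8-fold). So Nr2f2 was above the earlier progenitors and below the other cells of its own time. The fibrillin Fbn2 was 7.19- and 11.8-fold higher, the imprinted zinc finger gene Plagl1 5.57- and 6.33-fold, Pax3, a factor of the dorsal neural tube and somites, 4.91- and 8.32-fold and the guidance cue Sema3a 4.88- and 5.20-fold. From the lists, Wnt5a, a ligand of noncanonical Wnt signalling, was 2.67- and 6.21-fold higher.

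Genes that were lower than at 96 h included several of the same signalling families. Stmn2, a microtubule regulator of neurons, stood at 2.24 and 2.73 CPM in NMPs C against 35.8 and 102 CPM in the 96 h progenitors, ratios of 0.0627 and 0.0267. Wnt6 (0.157 and 0.107), Fgf3 (0.246 and 0.111) and the FGF-binding protein Fgfbp3 (0.164 and 0.113) were lower in both pairs. So were the intermediate filament gene Ina (0.114 and 0.176), the epithelial adhesion gene Epcam (0.191 and 0.141), the protease inhibitor Spint1 (0.236 and 0.199) and the mitochondrial RNA-binding factor Grsf1 (0.227 and 0.130). Cdx1 stood at 109 and 238 CPM at 96 h against 27.1 and 21.2 CPM in NMPs C (0.248 and 0.0889), while Cdx2 did not reach the threshold (0.881 and 0.696). T, more than 2-fold above the other cells at 120 h, was at 0.353 and 0.464 of its 96 h level, and Sp5 at 0.333 and 0.233. Nr6a1, a nuclear receptor of trunk elongation, was at 0.417 and 0.291. Of the genes leading over the other cells, Wnt5b (0.278 and 0.372) was at least 2-fold lower in both pairs. Evx1os (0.429 and 0.52), Fgf8 (0.682 and 0.475) and Notum (0.653 and 0.724) were also below their 96 h level, short of the threshold. Smim10l2a (1.73 and 4.46), Tril (1.26 and 3.30) and Cdx4 (1.22 and 2.56) were above it, and Cyp26a1 (0.495 and 1.48) differed between the pairs.

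The 33 cells annotated NMPs C at 96 h gave levels but no test. In replicate 1 (24 cells, 421374 UMIs) T was at 204 CPM (86 UMIs) and in replicate 2 (9 cells, 66434 UMIs) at 271 CPM (18 UMIs), above the 120 h levels of 75.3 and 68.0 CPM. Hoxc10 had 0 UMIs in replicate 1, with an upper limit of 8.75 CPM, and 1 UMI in replicate 2. Hoxa10 had 1 UMI and 0. Hoxd9 was at 28.5 CPM and Hoxa9 at 35.6 CPM in replicate 1, and both had 0 UMIs in replicate 2, which allows up to 55.5 CPM. For Hoxc10 in replicate 1, the 224.5 CPM of the 120 h cells lay above the limit that counting error allows for the 96 h cells.

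T and Sox2 were detected in the same cells more often in NMPs C than in the neighbouring fates. At 5000 UMIs per cell, both genes had a UMI in 232 of 1251 NMPs C cells of the posterior part (18.5%, exact binomial 95% interval 16.4 to 20.8), 189 of 1581 of whole replicate 1 (12.0%, 10.4 to 13.7) and 90 of 627 of whole replicate 2 (14.4%, 11.7 to 17.3). Late PSM gave 3.47%, 3.75% and 0%, Spinal cord A 8.77%, 3.73% and 6.45%, and Spinal cord B 3.71%, 1.05% and 2.96%. Somite cells, as the background, gave 0%, 0.0591% and 0%. Endoderm of the posterior part, with 183 cells, gave 10.9%. These fates were clustered on the same transcriptomes, so the shares carry no test.

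Within NMPs C, T and Sox2 were not found together more often than their separate shares give. T alone was seen in 44.9%, 28.3% and 25.8% of the cells and Sox2 in 42.1%, 50.5% and 59.5%. The product of these shares was 18.9%, 14.3% and 15.4%, which lay within the interval of the share with both in the posterior part and in whole replicate 2 and above it in whole replicate 1. Neither gene was seen in 31.5%, 33.1% and 29.0%. Without thinning, both were seen in 56.8%, 39.7% and 32.9% of the cells, so the level of these shares is set by depth. The posterior part had the most T-positive and the fewest Sox2-positive cells, and it was a single library of its own batch.

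**Figure D4:**
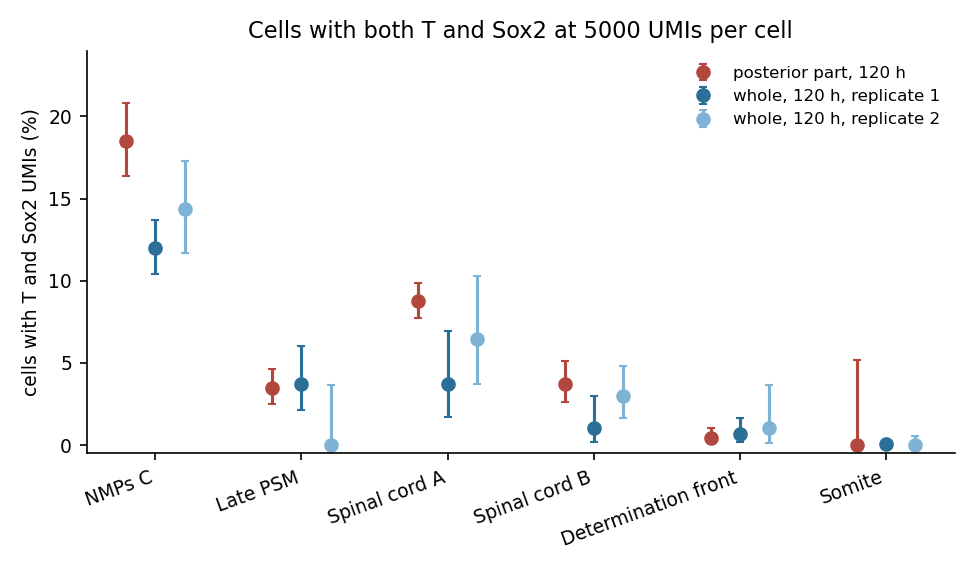
Percentage of cells with at least 1 UMI of both T and Sox2 after thinning each cell to 5000 UMIs, by fate and library at 120 h, with exact binomial 95% intervals. NMPs C lie at 12.0 to 18.5%, above every other fate shown, and somite cells lie at or near 0.

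NMPs C cells with and without a T UMI (562 and 689 cells, 447 and 1134, 162 and 465 at 5000 UMIs) differed in few other genes. Of 6666 genes with at least 50 UMIs in each library, 5 (0.075%) were at least 1.5-fold higher in the T-positive cells of all 3 libraries and 1 (0.015%) at least 1.5-fold lower. The Notch ligand Dll1 was at 34.9, 74.7 and 34.6 CPM in T-positive and 22.4, 32.5 and 13.3 CPM in T-negative cells. Tpm1, a tropomyosin, was at 480, 536.5 and 402.5 CPM against 315.5, 213 and 169 CPM. Phlda1 (ratios 1.73, 1.66 and 2.20), the interferon-induced membrane protein Ifitm3 (1.60, 2.31 and 1.69) and the caspase Casp6 (1.58, 1.52 and 1.80) were the other 3, and Phactr2 (0.581, 0.648 and 0.630) the 1 lower gene. Sox2 itself was at 0.914, 0.723 and 0.867 of its T-negative level and Cyp26a1 at 1.24, 2.54 and 2.39, neither past 1.5 in all 3. Cells are not replicates, and no test was made.

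How the cluster varied with the cell cycle was tested, as the authors had regressed out the cell cycle score before clustering. The phases were scored from these same transcriptomes, and the fates still differed in phase. In whole replicate 1, 11.5% of Spinal cord B and 36.9% of Spinal cord A cells were in G1. Whether phase affected which cells were assigned to NMPs C was not tested, so the p-values take the cluster as given. The annotated phases of NMPs C cells were G1 in 34.2%, 19.7% and 23.5%, S in 23.4%, 37.1% and 35.9% and G2M in 42.4%, 43.1% and 40.6%. The other cells of the same libraries were in G1 in 38.7%, 25.8% and 21.7% and in G2M in 38.4%, 40.7% and 40.0%. UMIs were summed over the G2M and over the G1 cells of NMPs C in each of the 3 pools of stembryos (dissected, whole replicate 1 and whole replicate 2; 1559795 to 14079517 UMIs per sum) and tested with edgeR's quasi-likelihood test with the pool as a block. Since the anterior part has no NMPs C cells, the dissected pool is the posterior part. Of 11629 genes, 623 (5.36%) were higher in G2M and 825 (7.09%) lower at a Benjamini-Hochberg adjusted p under 0.05. The higher calls were 43.0% of all calls, and 67.5% when the library sizes were used without normalization factors. The labels do not say whether the pools came from separate cultures, so the p-values reach no further than these 3 pools. They do not rest on each gene's own spread between the pools alone, because edgeR moderates it with that of all genes tested.

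Genes of mitosis were higher in G2M, a direction that the phase labels fix. Leaving out the 97 genes used to score the phases (55 higher, 21 lower), the lowest p belonged to Arl6ip1, a shaper of the endoplasmic reticulum. It was at 152, 124 and 145 CPM in G1 and 514, 423 and 453 CPM in G2M, a log2 change of 1.74 ± 0.0421 (SE, n = 3 pools, edgeR adjusted p = 2.23e-19). Ccnb1 (cyclin B1; log2 change 1.71), the spindle midzone protein Prc1 (2.13), the mitotic kinase Plk1 (1.83), the histone gene H2afx (1.05) and the nuclear RNA Malat1 (0.64) followed. Lower in G2M were genes of DNA replication and the G1 to S transition. Dut, which clears dUTP, was at 578, 518 and 493 CPM in G1 and 399, 377 and 350 CPM in G2M (log2 change -0.50 ± 0.0335, edgeR adjusted p = 6.74e-11). Mcm2 (-0.68), Orc6 (-0.66), Ccne1 (cyclin E1; -1.18), the noncoding RNA Gt(ROSA)26Sor (-0.84) and the ribosomal protein gene Rps26 (-0.21) were the other named genes, and all 12 changed in the same direction in every pool.

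Genes of axis extension differed between the phases too. Of 20 tested, 4 were higher in G2M and 8 lower, beside 5.36% and 7.09% of all genes tested (5 and 7 without normalization factors, where Cdx2 was no longer called), and their median log2 change was -0.171 against -0.00763 for all genes. Sox2 was at 111, 134 and 171 CPM in G1 and 155, 173 and 234.5 CPM in G2M, a log2 change of 0.43 ± 0.0496 (edgeR adjusted p = 8.77e-07). Sall4 (0.27), Wnt5a (0.26) and the ephrin receptor Epha5 (0.20) were the other 3 higher genes, and Epha5 alone of the 4 was not higher in every pool, with 189 CPM in G1 and 179 in G2M of whole replicate 2. Wnt3a was at 30.01, 23.7 and 16.01 CPM in G1 and 21.5, 14.1 and 6.77 CPM in G2M, a log2 change of -0.66 ± 0.122 (edgeR adjusted p = 5.26e-04). Cdx1 (-0.47), Mnx1 (-0.44), Wnt5b (-0.37), Sp5 (-0.33), Fgf17 (-0.29), Nkx1-2 (-0.26) and Cdx2 (-0.16) were also lower. Without whole replicate 1 the list had 3 higher and 3 lower genes, and with DESeq2 it had 2 and 2.

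T itself was not called, with a log2 change of -0.18 ± 0.0731 (edgeR adjusted p = 0.115), nor was Fgf8 (0.09 ± 0.0497, adjusted p = 0.294 in the same edgeR fit).

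**Figure D5:**
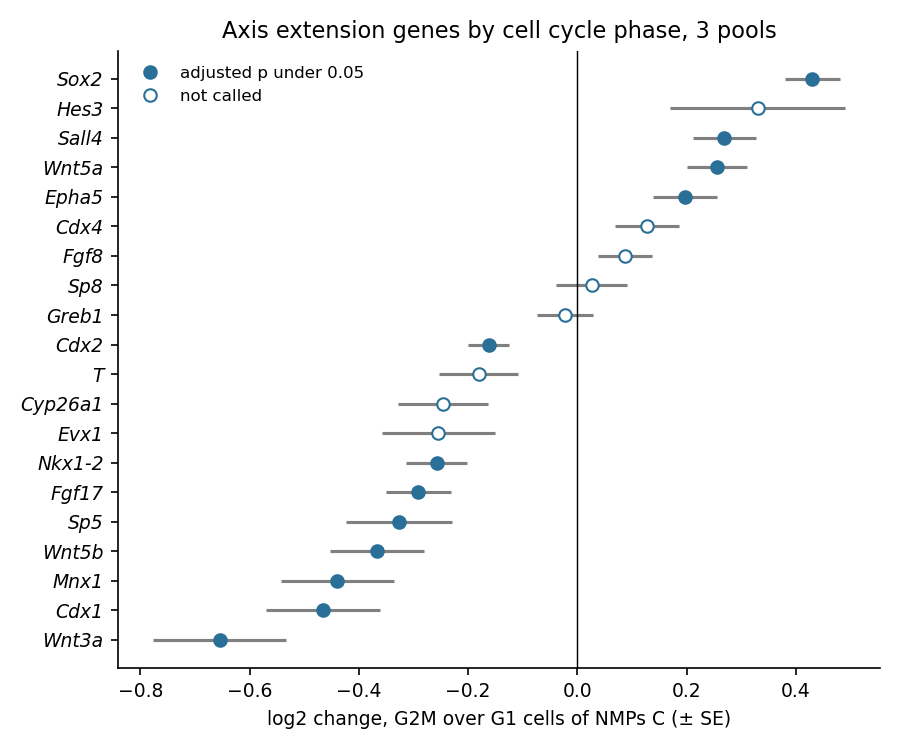
Log2 change of G2M over G1 cells within NMPs C for the axis extension and textbook progenitor genes tested, with SE over the edgeR fit of 3 pools. Filled points have an adjusted p under 0.05, from Wnt3a at -0.66 among the lower genes to Sox2 at 0.43 among the higher ones.

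The presomitic mesoderm list had 5 of 10 genes lower in G2M and none higher, where 7.09% of all genes tested were lower and 5.36% higher. They were Tbx6 (log2 change -0.64), Hes7 (-0.26), Pcdh19 (-0.67), and the Notch ligands Dll1 (-0.61) and Dll3 (-0.43), and their list median was -0.299. Of the spinal cord list, Irx3 (0.57), Irx5 (0.98) and the neuronal tubulin Tubb3 (1.06) were higher and Dll1 lower among 12 tested, against the same shares of all genes. Of the marker genes, Lrrn3 was higher (0.66 ± 0.116, edgeR adjusted p = 3.09e-04) and Fabp7 (-0.55) and Lpl (-0.38) lower. Hoxc10 was at 109, 234 and 122 CPM in G1 and 105, 245 and 125 CPM in G2M, a log2 change of 0.02 ± 0.0494 that was not called (edgeR adjusted p = 0.822). Hoxa10 was not called either (-0.14 ± 0.0931, edgeR adjusted p = 0.376). No Hox gene was higher and 4 were lower (Hoxa3, Hoxb1, Hoxb4 and Hoxb8), by 0.16 to 0.22 on the log2 scale, and without normalization factors those 4 calls were lost and 2 other Hox genes were called higher. With DESeq2 no Hox gene was called in either direction. With cells of at most 1.5 times the mean UMI count, 1 was called higher and none lower.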

How the data were processed

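Single-cell transcriptomes of 6 libraries of wt stembryos were analysed, grouped by their labels. Per the submitters' processing notes, the authors aligned reads to mm10, counted UMIs with Cell Ranger 6.0 and filtered and annotated cells with Seurat 4.0.2, and the study's methods name a modified Ensembl annotation and removal of cells of extreme UMI count or mitochondrial share, which was also their treatment of doublets. The deposited table holds raw UMI counts per gene and cell, and the deposited cell annotation gives the mitochondrial share as a percent, the UMI and gene counts, the phase, batch, chemistry and fate. No further doublet caller was run, and a stricter upper limit of 1.5 times each library's mean UMI count was tried instead.

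UMIs were summed per library and fate and scaled to CPM without a pseudocount, with 3 UMIs as the floor of a sum at 0. A gene was called higher or lower at 2-fold in each library or pair with at least 20 CPM on the higher side. Named genes were the 15 highest and 8 lowest of those against the other cells, the 8 highest and 8 lowest against the 96 h progenitors, up to 6 each way in the T split (1.5-fold), and the 6 of lowest p each way between phases, besides the markers, the Hox genes at 20 CPM or more and examples from 29 gene lists. Some genes that these rules name are not reported here. The members, lists and rules were chosen with earlier results of these data known. For phases, edgeR 4.0.16 in R 4.3.3 (TMM, filterByExpr, glmQLFit and glmQLFTest with the pool as a block, since both phases come from the same suspension) was tested on simulated data, and DESeq2 1.42.0 was the alternative. A test of NMPs C between 96 h and 120 h was planned only for at least 20 cells in each whole library and was not run. Intervals and floors cover counting error only. Promoters are RefSeq, GRCm38.p6, and 19 of the 29 leading genes had one. Other alternatives changed the scaling, the level minimum, the thinning depth and the libraries used.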

Additional observations from a re-analysis of the deposited data

How the results depend on the processing

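The folds over other cells depended most on the level minimum and on the posterior part. With a minimum of 50 CPM, 13 genes were higher and 14 lower, and with none 159 and 173. With the other fates weighted equally, 42 were higher and 47 lower, of which 26 and 27 were among the 29 and 29. Leaving out 1 library gave 31 to 95 higher and 32 to 95 lower genes, the 95 and 95 without the posterior part. Against the 96 h progenitors the counts were 22 and 15 with a minimum of 50 CPM, 416 and 227 with none, 142 and 117 without replicate 1, and 95 and 46 without replicate 2, where a single pair is left. With TMM scaling they were 46 and 36. The alternatives were recomputed for the genes of highest and lowest fold in these comparisons and in the T split, and none of those changed direction. The size of some folds did change, most often against the 96 h progenitors without replicate 1. Other genes named were not recomputed.

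NMPs C cells with both T and Sox2 were 8.79%, 5.25% and 5.84% at 3000 UMIs, 56.8%, 39.7% and 32.9% without thinning, and 1.76%, 1.33% and 1.75% when 2 UMIs of each were asked for. At 3000 UMIs the product of the separate shares lay above the interval of the share with both in both whole libraries. It was 6.75% against 4.2 to 6.47 in replicate 1 and 8.02% against 4.16 to 7.92 in replicate 2. In the posterior part it was 9.45%, within 7.28 to 10.5. The T split gave 19 higher and 5 lower genes without thinning, of which 3 and 0 were among the 5 and 1, and 0 and 0 at 2-fold. Leaving out 1 library gave 5 to 38 higher and 6 to 20 lower genes, 38 and 20 without the posterior part, 23 and 6 without whole replicate 2 and 5 and 7 without whole replicate 1.

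Between phases, 1448 genes were called with the pool as a block. Without the replicate block 25 were called, all higher in G2M. DESeq2 called 514 of 7345 genes, and all 514 were among the 1448. Leaving out 1 pool gave 911 to 1288 calls, 911 without whole replicate 1 and 986 without whole replicate 2. The higher share of the calls was 43.0%, 67.5% without normalization factors and 59.0% without a filter on low counts. None of these alternatives reversed any of the 47 genes recomputed between phases, but many lost their call. With DESeq2 22 were no longer called and 22 still were. Without whole replicate 1 the numbers were 21 and 26, and without the replicate block 45 and 2. The planned test of NMPs C between 96 h and 120 h and its alternatives were not run, because the 96 h libraries hold 24 and 9 such cells. At 9 cells a gene at 0 may still be at up to 55.5 CPM.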
